A study of Mus musculus with 4 samples.

Results

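In mouse chondrocytes, 14279 stretches of chromatin that lay inside protein-coding genes were called open in both libraries of passage 0 and in neither library of passage 8. They were chosen by peak presence alone, after overlapping peaks of the 4 libraries had been merged into 170325 sites on chromosomes 1 to 19 and X. A site was taken when it overlapped a protein-coding gene of GRCm38 (mm10), lay more than 1 kb from every gene end, held a peak in both passage 0 libraries and held none at passage 8. The gene bodies held 76280 sites in all, of which 43759 had a peak in both passage 0 libraries, so the selected sites were 32.6% of the sites that could have been lost (95% Wilson interval 32.2 to 33.1%, counting error only). Below, such a site is called lost, which says that no P8 peak was called there. Sites of one gene share their gene and are not replicates of a condition.

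The cells were chondrocytes taken from the knee articular cartilage of C57BL/6 mice between 0 and 4 days after birth and grown in DMEM/F12 with 10% fetal bovine serum. Passage 0 (P0) cells had been in culture for less than 24 h, and passage 8 (P8) cells had been passaged 8 times, once at each doubling of their number. Each passage had 2 libraries, here called A and B, and no allele or drug distinguished them. No source used here states that the libraries came from separate animals or cultures, so differences between libraries may measure technical spread.

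Chondrocytes lay down the collagen and proteoglycan matrix of cartilage, and they lose this activity when they are passaged on plastic, a change called dedifferentiation. Open chromatin within genes, away from their ends, often carries enhancers, the switches that transcription factors such as Sox9, Sox5 and Sox6 bind to drive cartilage genes, and it can also carry promoters that start a shorter transcript of the same gene. ATAC-seq marks such stretches because the transposase Tn5 cuts and tags DNA that is not packed into nucleosomes.

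The gene table used here does not separate exons from introns. Of the selected sites 196 (1.37%) overlapped a RefSeq promoter window, the stretch from 250 bases before to 50 after a start site, and 141 of these started the gene they lay in. The sequences below show the bases that lie before the start site and inside the selected site, from RefSeq on GRCm38, 5′ to 3′ on the strand of the gene. Capitals mark the GC box (GGGCGG or CCGCCC, a motif of promoters) and the SOX hexamer (ACAAAG or CTTTGT). Runx3 and Papss2 are shown as cartilage-related genes, Ptpdc1 for a strong site of this kind, and Zdbf2 for a site that held the whole window. They were picked after their values were seen.
Runx3 chr4:135152295-135152544, plus strand: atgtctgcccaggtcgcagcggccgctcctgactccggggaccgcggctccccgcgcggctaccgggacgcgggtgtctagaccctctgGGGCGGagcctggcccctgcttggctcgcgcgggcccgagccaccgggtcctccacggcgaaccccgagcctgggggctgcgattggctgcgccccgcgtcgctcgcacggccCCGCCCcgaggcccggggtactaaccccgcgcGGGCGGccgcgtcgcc
Zdbf2 chr1:63273019-63273268, plus strand: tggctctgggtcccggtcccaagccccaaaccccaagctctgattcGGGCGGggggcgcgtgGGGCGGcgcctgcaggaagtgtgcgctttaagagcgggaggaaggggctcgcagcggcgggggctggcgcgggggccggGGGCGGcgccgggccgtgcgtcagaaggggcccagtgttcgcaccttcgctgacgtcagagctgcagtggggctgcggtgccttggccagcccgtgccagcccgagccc
Papss2 chr19:32619864-32620004, plus strand: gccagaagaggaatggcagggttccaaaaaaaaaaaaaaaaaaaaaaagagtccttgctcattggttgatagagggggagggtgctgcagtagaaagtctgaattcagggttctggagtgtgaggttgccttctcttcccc
Ptpdc1 chr13:48593392-48593497, minus strand: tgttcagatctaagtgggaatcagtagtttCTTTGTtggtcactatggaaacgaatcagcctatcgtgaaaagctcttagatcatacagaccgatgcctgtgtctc

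Runx3, a transcription factor of chondrocyte maturation and bone formation, lost the peak at one of its internal promoters. The site at chr4:135152228-135152623 had a summit pileup, the number of tags stacked at its highest point, of 24 in P0 library A and 18 in P0 library B. These were 5.11 and 4.81 times the local background. The adjacent site at chr4:135152835-135153094, with 19 and 15 tags at P0, kept a peak of 9 tags (3.71-fold) in P8 library B. The printed stretch holds 3 GC boxes, and its window of 300 bases had 77.3% G and C and a ratio of observed to predicted CpG of 1.006. The Papss2 window had 44.3% G and C, a CpG ratio of 0.068 and none of the motifs searched. Papss2, which makes the sulfate donor for cartilage proteoglycans, had pileups of 16 and 10 at that site, with 3.68-fold and 2.84-fold enrichment. The site of Ptpdc1 was stronger, with 23 and 18 tags and 9.93-fold and 8.70-fold enrichment.

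Promoter windows were rarer among the selected sites than among the 22463 gene-body sites open in all 4 libraries, of which 1469 (6.54%) overlapped one. The difference was 5.17 percentage points (95% Newcombe interval 4.79 to 5.54). It was seen at both strengths, with 1.46% against 3.87% of the sites below 6-fold enrichment and 0.947% against 7.99% of those at 6-fold or more in both P0 libraries. The windows that were lost were also less often CpG-rich, defined as over 50% G and C with a CpG ratio over 0.6: 62 of 217 windows (28.6%), against 1024 of 1770 (57.9%) at sites open in all 4 libraries and 33.3% of all 32851 windows of the RefSeq table. Lost windows and those at sites open in all 4 libraries differed by 29.3 points (22.5 to 35.3), a comparison not split by strength. Gene-body sites with both P0 peaks and a peak in 1 P8 library, which do not count as lost, lay near the lost ones. Of these sites 2.01% overlapped a promoter window, 38 of their 159 windows (23.9%) were CpG-rich and 42.8% held a GC box. A GC box was held by 41.0% of the lost windows, by 57.2% of those open in all 4 libraries and by 35.7% of all windows. The SOX hexamer was in 17.1, 13.95 and 18.7% of these windows, the second SOX word (ACAATG or CATTGT) in 7.37, 7.63 and 12.6%, the RUNX motif (TGTGGT or ACCACA) in 17.97, 13.6 and 16.8%, the AP-1 motif (TGANTCA) in 6.91, 7.51 and 7.81%, and the TEAD motif (ACATTCC or GGAATGT) in 5.07, 3.79 and 3.85%. A match of letters is not a bound site, and the sequence of the other selected sites was not analysed here.

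Some of the selected sites lay on microRNA genes, which are often carried in the introns of longer genes. Of 1072 microRNA genes, 10 had a hairpin that overlapped a selected site and 23 lay within 500 bp of one. No matching count is given here for other gene-body sites, so these numbers cannot be read as many or few. The strongest of the 10 overlapped sites were in Map2k4, a kinase gene that carries Mir744, and in Arpp21, which carries Mir128-2. The mature sequences from RefSeq are printed with the seed, bases 2 to 8, in capitals, beside that of miR-140, a microRNA of cartilage whose gene lies in Wwp2.
miR-744-5p, chr11:65734799-65734820, minus strand: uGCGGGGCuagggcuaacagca
miR-744-3p, chr11:65734742-65734763, minus strand: cUGUUGCCacuaaccucaaccu
miR-128-3p, chr9:112118644-112118664, minus strand: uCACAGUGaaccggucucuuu
miR-140-3p, chr8:107551288-107551308, plus strand: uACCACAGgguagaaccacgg

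The site over Mir744 (chr11:65734694-65735012) had 21 tags in P0 library A and 19 in P0 library B, 9.11-fold and 9.15-fold over background. The site over Mir128-2 (chr9:112118301-112118845) had 19 and 18 tags, 8.28-fold and 8.16-fold. No seed is shared among the 4 printed sequences. The miR-140 hairpin itself was not covered: the nearest selected site in Wwp2 (chr8:107537658-107537787) lay 13457 bp away with 20 and 21 tags, while sites open in all 4 libraries lay 6.04 kb and 1.85 kb from the hairpin. Mir455, another cartilage microRNA, lay 18442 bp from the nearest selected site of its host Col27a1.

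The selected sites were narrow and of moderate strength. Their median width was 220 bp (quartiles 167 and 294 bp), against 408 bp for gene-body sites open in all 4 libraries. The summit pileup had a median of 14 tags in P0 library A, with a range from 6 to 61, and of 12 tags in P0 library B, with a range from 6 to 60. At sites open in all 4 libraries the medians were 26 and 21 tags in the P0 libraries and 15 and 17 tags in the P8 libraries. The lower of the 2 P0 fold enrichments had a median of 4.55 (quartiles 3.90 and 5.49, highest 15.2) at the selected sites and of 7.10 at the sites open in all 4. These levels describe the selection and are not a test of it. Together the selected sites covered 3.52 Mb.

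Depth moved with passage. The lowest local background, a measure of how many tags a library held, was 1.42 and 1.18 tags in the P0 libraries and 1.02 and 0.979 tags in the P8 libraries, and the number of peaks was 144272 and 118785 against 88413 and 98548. Each P0 peak was also scored at the lowest of these backgrounds, with its pileup and its local background both scaled down in proportion. Of the selected sites 96.5% still reached the weakest score called in the library of that background (−log10 p of 3.32). The share among sites open at P0 was then 32.0%. With higher limits on that score the share was 24.5% at 5, 16.4% at 7, 8.15% at 10 and 3.02% at 15. The absence of a peak does not show that a site was closed, because no P8 level is listed where no peak was called, and fewer cells with the site open cannot be told apart from a lower level in every cell. The 2 P0 libraries ranked the selected sites alike in part, with a Spearman correlation of 0.649 across the 14279 sites, which are not replicates. The summits of the 2 libraries lay a median of 31 bp apart, within 50 bp at 66.7% of sites. The nearest P8 peak was a median of 5712 bp away, and 1551 sites (10.9%) had one within 500 bp.

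The share lost was lower at stronger sites. When the P0-open gene-body sites were put into 10 classes of nearly equal size by enrichment, 59.2% were lost in the lowest class (2.04-fold to 3.71-fold), 28.1% in class 6 and 2.67% in the highest (10.2-fold to 34.2-fold). Of the 19171 sites with at least 6-fold enrichment in both P0 libraries, 2324 (12.1%) were lost. The background share was 33.0% (12420 of 37601) for sites between genes and 13.6% (2456 of 18046) for sites no more than 1 kb from gene ends. Gene bodies and intergenic stretches differed by −0.40 percentage points (95% interval −1.05 to 0.247), an interval that includes 0. Within the classes of strength the gene-body share was the lower in each of the 10 classes, with 55.1% against 59.8% in class 3 and 37.8% against 41.2% in class 5. Gene bodies exceeded gene ends by 19.02 points (18.4 to 19.7). In the opposite direction, 1284 of 25775 gene-body sites with a peak in both P8 libraries (4.98%) had none at P0. Leaving out P0 library B, so that a peak in library A alone was needed, raised the number of selected sites from 14279 to 29490.

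**Figure D1:**
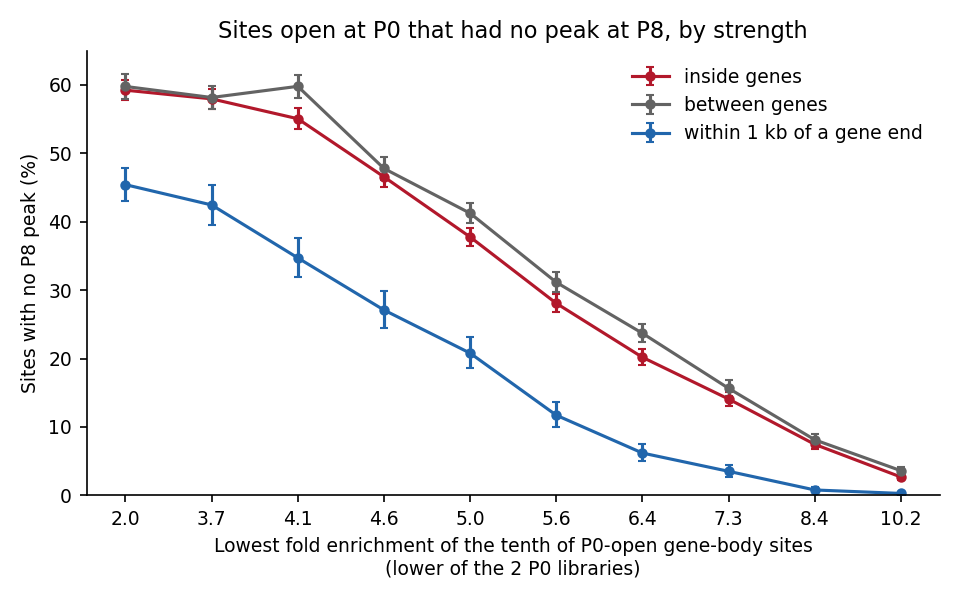
Percentage of sites with a peak in both P0 libraries that had no P8 peak, plotted for 10 classes of strength (marked by the lowest fold enrichment of each class, evenly spaced), for sites inside genes, between genes and no more than 1 kb from gene ends. Bars are 95% Wilson intervals, the gene-body share falls from 59.2% to 2.67% and is below the intergenic share in each class, and the gene-end line lies below both.

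At the 1 kb limit of the selection, 86 selected sites lay up to 100 bp beyond it, with a median of 3.82-fold, and 107 lost sites lay up to 100 bp short of it, with a median of 3.86-fold. The share lost rose with distance from the gene end, from 27.8% of sites at 1 to 2 kb to 38.3% of those beyond 100 kb, although the median enrichment of P0-open sites was 4.98-fold in the nearest bin and 5.80-fold in the farthest. It also rose with the length of the host gene, from 28.6% to 38.0% between the lowest and highest of 5 classes of sites by gene length (genes up to 41.9 kb and over 313 kb), and from 8.38% to 16.4% among sites of at least 6-fold enrichment. Along the gene, from start to end, the selected sites were spread nearly evenly, with 18.6 to 20.9% in each of 5 equal stretches, among the 11223 sites whose gene had a known strand. A selected site lay a median of 17862 bp from the next, and 36.8% had another within 10 kb.

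The host genes were many, and few held a large number. Of 10010 genes with a P0-open site in the body, 5894 held a selected site, 3077 of them 1 site, 1695 at least 3, 779 at least 5 and 168 at least 10. The hosts were long, with a median length of 64.1 kb, against 26.4 kb for genes that had a P0-open site and lost none. Tenm4 and Tenm2, which encode teneurins, transmembrane proteins of cell adhesion, each held 30. In Tenm4 (chr7:96171244-96911093) these were 50.8% of 59 P0-open sites, and in Tenm2 (chr11:36006656-37237053) 58.8% of 51. Tenm2 also had more selected sites of at least 6-fold enrichment, 12, than any other gene. Pde4d, a cyclic AMP phosphodiesterase, held 26 of 66. The RNA-binding protein gene Msi2 (22 of 59) and the transcription activator gene Camta1 (22 of 44) followed.

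Arid1b, a subunit of a chromatin remodelling complex, held 21 of 39. Sox6 (of 41 P0-open sites), Nav2 (of 67) and the transcription factor gene Npas3 (of 42) each held 20. A count of 19 was reached by Sorbs2 (of 37), the Rac exchange factor gene Tiam1 (of 40), Pdzd2 (of 35), Zbtb20 (of 49) and Sox5 (of 43). Across genes with a P0-open site the count rose with gene length (Spearman 0.542 over 10010 genes) and with the number of open sites (0.689), so the share is given as well. Among these 14 genes it ran from 29.9% in Nav2 to 58.8% in Tenm2, beside 32.6% for all gene-body sites.

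By share, among the 1139 genes with at least 10 P0-open sites in the body, 156 lost at least 50% of them and 14 lost none. The highest were Pdgfd, a platelet-derived growth factor gene, and Tmem132b, each with 11 of 12 sites lost. Grid1 and Lrp1b, which encode a glutamate receptor subunit and an LDL receptor relative, each lost 12 of 14. Ssbp2 lost 9 of 11, and Dpp6, an accessory subunit of potassium channels, and Hmcn1, a matrix protein, each lost 12 of 15. Adcy5, an adenylyl cyclase gene, lost 11 of 14, and Fmn2, Fras1 and the glutamate transporter gene Slc1a2 each lost 9 of 12. With 10 to 15 sites a gene the intervals are wide, 64.6 to 98.5% for Pdgfd and 46.8 to 91.1% for Slc1a2. The ranking does not take strength into account, although weaker sites were lost more often. Pdgfd, Hmcn1 and Slc1a2 held 0 selected sites of at least 6-fold enrichment in both P0 libraries, and the other genes of this ranking from 3 to 5. Of the 779 genes with at least 5 selected sites, 119 held a run of at least 5 lost sites with no other P0-open site between them. The longest runs were in Dlg2 (13 sites over 837 kb), Dpp6 (12 over 758 kb) and Grid1 (11 over 668 kb), while in Slc1a2 9 sites stood within 59.3 kb. No count of runs of other sites is given beside this, so it does not show that lost sites cluster.

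Genes at the other end, chosen after their values were seen, lost none. Epb41l3, which links the membrane to actin, and Lhfpl2 had 0 of 16 lost, Map4k4 0 of 15, the focal adhesion gene Pxn 0 of 14 and the integrin gene Itgb5 0 of 13. All 16 sites of Epb41l3 and all 13 of Itgb5 were open in every library.

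Sites of high enrichment were few among the selected ones, with 133 at 10-fold or more in both P0 libraries. The strongest lay in Bmt2 (chr6:13641516-13641821), with 37 and 35 tags and 15.2-fold and 16.5-fold enrichment, and its nearest P8 peak was 33263 bp away. Fbxl7, an F-box gene (chr15:26842213-26842580), had 38 and 33 tags, and Pam, a peptide-amidating enzyme gene (chr1:97850623-97851119), also had 38 and 33. In both P0 libraries these sites lay at or above 14.7-fold. Dpp6 (chr5:27626885-27627355) had 35 and 32 tags and Adgrb3, an adhesion receptor gene (chr1:25504385-25504693), 36 and 30. The remaining sites of the top 10 were in Nyap2, Urb1, Zfp831, the formin gene Diaph2 on the X chromosome and Tenm2, between 13.4-fold and 13.8-fold in the weaker library. With pileup and background scaled to the lowest background of the 4 libraries, these 10 sites scored a −log10 p from 23.8 to 28.5. They were picked for their enrichment at P0, so a score above the weakest one called there followed from the choice and tests nothing.

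**Figure D2:**
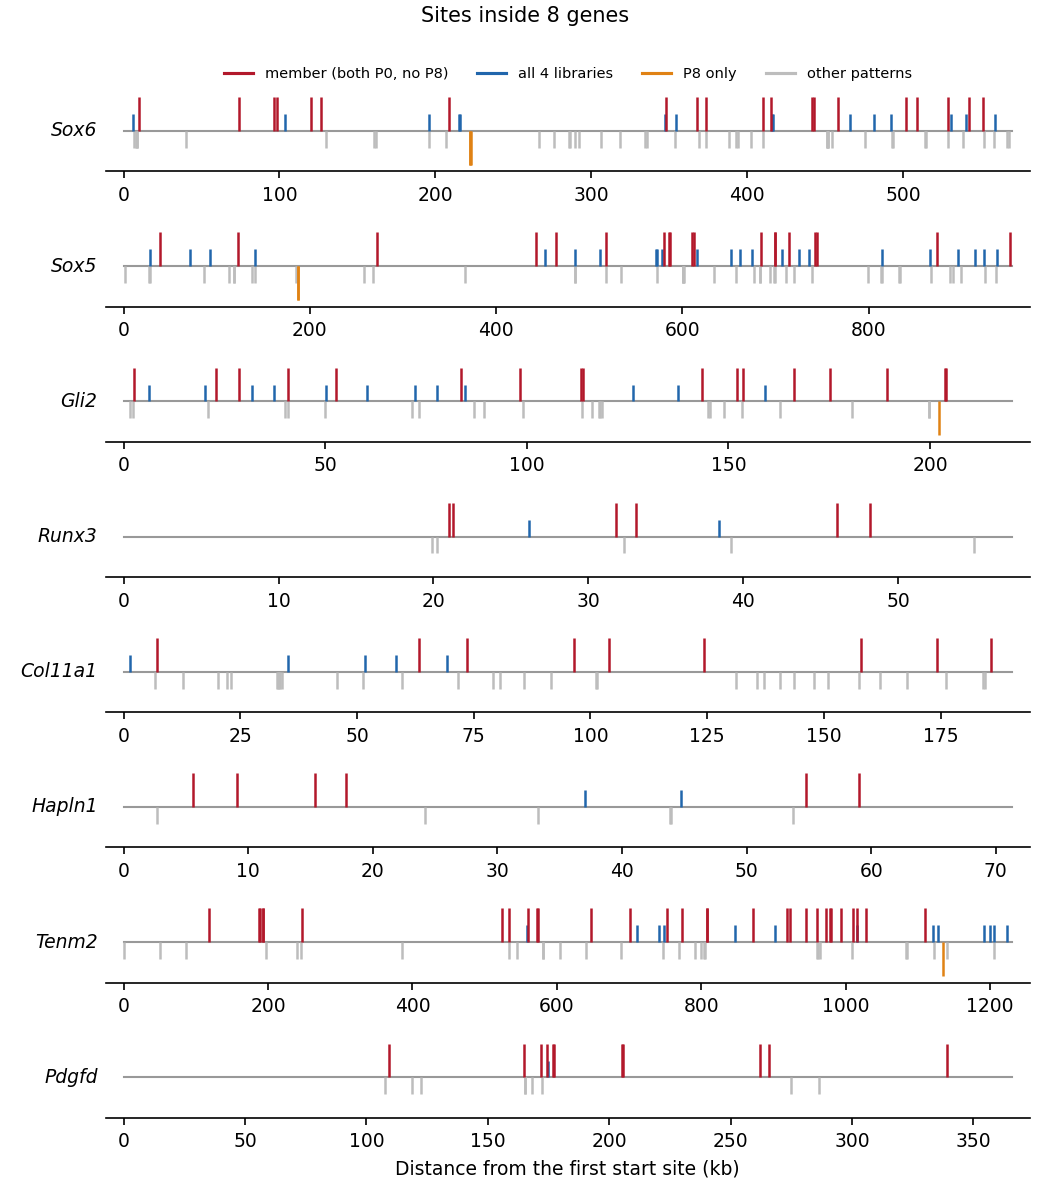
Positions of merged sites along 8 genes, in kb from the first start site. Long red marks are selected sites, blue marks sites open in all 4 libraries, orange marks sites open at P8 alone, and grey marks below the line other patterns, and both selected and retained sites lie along Sox6, Sox5 and Gli2, while 11 of the 12 P0-open sites of Pdgfd are selected.

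Genes of cartilage regulation and matrix were described from lists. Among 21 chondrocyte transcription factor genes, 15 held a selected site, and 146 of 348 P0-open sites (42.0%, 36.9 to 47.2%) were lost, beside 32.6% over all gene bodies. Sox6 and Sox5, the partners that help Sox9 bind cartilage enhancers, lost 48.8% and 44.2% of their sites. Their strongest selected sites were at chr7:115630757-115630992 with 20 and 19 tags in Sox6 and at chr6:144098229-144098513 with 17 in both libraries in Sox5. Zbtb20, a zinc finger gene of growth plate chondrocytes, had a site of 21 and 22 tags (chr16:43130523-43130930, 8.84-fold and 10.4-fold). Nfia lost 18 of 40. Runx3 lost 6 of 9 and Runx2, which drives hypertrophy and bone formation, 7 of 23. Gli2, an effector of hedgehog signalling named after its value was seen, lost 17 of 31. Sox9 itself had no P0-open site in its body, which is 5.55 kb long.

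The transcription factor genes were long, with a median of 217 kb, and long genes lost more sites in general. In the highest of the 5 length classes they lost 42.0% of 219 sites (35.7 to 48.6%), against 38.0% for all genes of that class, and in the class below it 40.5% of 111 (31.9 to 49.8%), against 33.7%. At 6-fold enrichment or more the list lost 13.6% of 140 sites (8.86 to 20.2%), against 12.1%. Both intervals within a length class, and that of the strong sites, include the share over all genes. Neuron markers, which serve as long genes of another cell type, lost 42.0% of 131 sites (33.9 to 50.5%), and among them Dlg2 lost 18 of 46, Cntnap2 11 of 23, Syt1 7 of 12, and Csmd1 and Rbfox3 6 of 11 each.

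Cartilage matrix genes lost 26 of 87 sites (29.9%, 21.3 to 40.2%), an interval that includes 32.6%. Col11a1, a fibril-forming collagen gene (chr3:114030479-114220756), held 9 of the 26, out of 20 P0-open sites. The 9 sites had 20 to 24 tags in P0 library A and 12 to 26 in P0 library B, and the highest enrichment among them was 5.29-fold. In Col11a1 5 sites were open in all 4 libraries, among them one at chr3:114099370-114099951 with 60 and 53 tags at P0 and 24 and 32 at P8. Hapln1, the link protein that joins aggrecan to hyaluronan, lost 6 of 9, with the strongest at chr13:89549503-89549838 (30 and 25 tags). Epyc, a small leucine-rich proteoglycan of the growth plate, lost all 3: a site at chr10:97647279-97647506 with 25 and 19 tags, another at chr10:97649671-97649880 with 23 and 27, and a weaker one with 10 and 8.

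Col9a1 lost 2 of 10, and these were high in tags, 49 and 37 at chr1:24231421-24231735 and 36 and 32 at chr1:24244916-24245275. Their enrichment was 3.81-fold and 3.75-fold at the first and 4.68-fold and 5.15-fold at the second. Beside the first lay a site open in all 4 libraries (chr1:24230417-24231027), with 88 and 81 tags at P0 and 27 and 33 at P8. Col27a1 also lost 2, of 17. Acan, the gene of the main cartilage proteoglycan, lost none of 4: a pair of them was open in all 4 libraries and the other pair kept a peak in P8 library B. Col2a1, the gene of the main cartilage collagen, had no P0-open site in its body and 1 site open at P8 alone, with 26 and 29 tags at 2.75-fold and 2.58-fold. Matn1 had no P0-open body site either. The local background under the selected sites of matrix genes was high, with medians of 4.27 and 3.23 tags in the P0 libraries against 1.42 and 1.18 over all selected sites. The median pileup there was 20.5 and 17.5 tags and the median of the lower enrichment 3.73-fold. The part of this background in the counts was not tested.

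Growth plate signalling genes lost 56 sites (27.9%, 22.1 to 34.4%). Igf1r, the receptor of insulin-like growth factor, lost 13 of 36, with one site of 29 and 25 tags at chr7:67985303-67985596 (9.38-fold and 9.87-fold). Wwp2 lost 7 of 23, Tgfb2 5 of 12 and Fgfr2 4 of 13. Fgfr3, which restrains growth plate proliferation, had 2 P0-open body sites and lost both, with 25 and 22 tags at chr5:33723207-33723428 and 19 and 16 at chr5:33728932-33729181. Their enrichment was low, 3.32-fold and 3.30-fold at the first and 2.69-fold and 2.77-fold at the second. Ihh, the hedgehog ligand of prehypertrophic cells, also lost both of its sites, and Bmpr1b, a BMP receptor, lost 0 of 10. Ihh and Bmpr1b were named after their values were seen.

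Genes of proteoglycan synthesis and sulfation lost 70 of 215 sites (32.6%, 26.6 to 39.1%), close to the share over all gene bodies. Xylt1, which starts glycosaminoglycan chains on core proteins, lost 14 of 39, Csgalnact1 12 of 36, the heparan sulfate polymerase gene Ext1 10 of 28 and the sulfotransferase gene Chst11 6 of 26. Papss2, named after its value was seen, lost 5 of 7. Hypertrophic and osteogenic genes lost 5 of 18 sites, with 3 of 8 in Alpl, an alkaline phosphatase of mineralizing cells.

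Fibroblast and wound matrix genes lost sites too, 19 of 60 (31.7%, 21.3 to 44.2%). Tnc, encoding tenascin C, a glycoprotein of wounds and perichondrium, held a strong one (chr4:64037416-64038146) with 40 and 32 tags and 10.5-fold and 10.3-fold enrichment. Fbln2 had 3 of 7 lost, each of at least 6-fold, Col5a1 3 of 9 and Prrx1 3 of 10. At 6-fold or more the list lost 5 of 20 sites (25.0%, 11.2 to 46.9%), 3 of them in Fbln2. That interval includes the 12.1% over all strong sites. AP-1 family genes lost 1 of 11, a site in Jun with 56 and 53 tags but 2.83-fold and 3.27-fold enrichment, over a background of 19.1 and 15.5 tags.

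**Figure D3:**
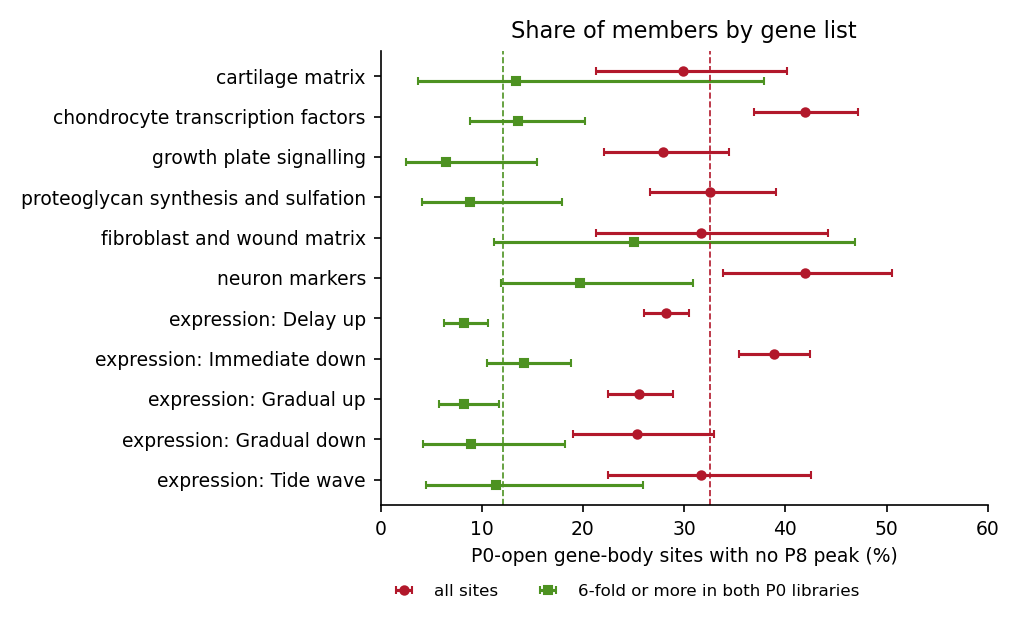
Percentage of P0-open gene-body sites with no P8 peak for 6 gene lists and the 5 expression classes, with 95% Wilson intervals, for all sites (red) and for sites of at least 6-fold enrichment in both P0 libraries (green). Dashed lines mark the shares over all gene-body sites, 32.6% and 12.1%, chondrocyte transcription factors and neuron markers stand at 42.0% and the class Immediate down at 38.9%.

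Markers of other cells held few P0-open body sites. Blood and macrophage markers lost 3 of 9 sites, endothelial markers 3 of 15, muscle markers 1 of 3, adipocyte markers 1 of 6 and housekeeping genes 3 of 8. Gene ends were searched for a peak at 1 kb or less, and one was present for 22 and 21 of 24 cartilage matrix genes in the P0 libraries and for 13 and 16 in the P8 libraries. In the same order the counts were 19, 20, 17 and 17 of 21 chondrocyte transcription factors and 26, 26, 22 and 24 of 29 growth plate signalling genes. Hypertrophic and osteogenic genes had 9, 9, 6 and 8 of 12, and proteoglycan synthesis genes 17 of 20 in every library. Blood markers had one at 4 of 8 genes in each P0 library and 3 of 8 in each P8 library, endothelial markers at 4 of 7 in each P0 library and 3 of 7 in each P8 library, and muscle markers at 4 and 3 of 7 at P0 and 2 of 7 in each P8 library. Neuron markers had one at 7 of 8 genes in each P0 library and 6 of 8 in each P8 library, adipocyte markers at 4, 4, 3 and 4 of 5, and fibroblast genes at 20 of 21 in each P0 library and 19 of 21 in each P8 library. Housekeeping genes had one at 9 of 10 in every library. End peaks were thus also present at most neuron, adipocyte and fibroblast genes. The part of other cells in the selected sites was not tested.

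The study sorted 1000 genes into classes by their change along a pseudotime built from single-cell RNA of other samples, and 981 of them matched the gene table. Genes of the class Immediate down, whose RNA fell early, lost 292 of 751 sites (38.9%, 35.5 to 42.4%). Genes of Delay up lost 437 of 1548 (28.2%), of Gradual up 185 of 724 (25.6%), of Gradual down 37 of 146 (25.3%) and of Tide wave 25 of 79 (31.6%). Immediate down exceeded Delay up by 10.7 points (6.53 to 14.8), and by 5.97 points (1.60 to 11.0) among sites of at least 6-fold enrichment. Of those strong sites Immediate down lost 39 of 275 (14.2%, 10.6 to 18.8%), an interval that includes the 12.1% over all strong gene-body sites. Delay up lost 51 of 621 (8.21%, 6.30 to 10.6%), below that share. Immediate down exceeded Gradual down by 13.5 points (5.18 to 20.8), but among strong sites that interval ran from −4.70 to 11.9 and included 0. The difference from Tide wave was 7.24 points, with an interval from −4.19 to 17.1 that includes 0. Gradual down fell to 18.8% without Ldlrad3, which held 15 of its 37 lost sites. In the highest length class Immediate down lost 47.9% of 142 sites (39.8 to 56.1%) and Delay up 29.7% of 323 (25.0 to 34.9%), beside 38.0% for all genes of that class. In the class below it Immediate down lost 41.6% of 154 (34.1 to 49.5%), Gradual down 42.0% of 50 (29.4 to 55.8%) and Delay up 28.7% of 387 (24.4 to 33.4%), beside 33.7%. The genes of Immediate down with the most selected sites were Tenm4, Bcl2 (14 of 23), Zfp385b (13 of 25), Sobp (10 of 19) and Col11a1. A direction of RNA and a lost site in the same gene do not show that one acts on the other.

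Loss of sites within a gene was compared with the peaks at its ends, which the selection did not use. Of the 1695 genes with at least 3 selected sites, an end peak, at 1 kb or less, was present at 87.1 and 85.7% in the P0 libraries and at 76.5 and 78.6% in the P8 libraries (A, then B). Both P8 libraries were below both P0 libraries, and the means differed by −8.88 percentage points (exact two-sided permutation test over the 4 libraries, p = 0.333, the smallest that 2 against 2 libraries can give). The 4116 genes that had a P0-open body site and lost none showed 79.5 and 77.5% at P0 and 70.1 and 72.1% at P8, a difference of −7.40 points. The gap between the gene sets narrowed by 1.48 points from P0 to P8 (exact permutation p = 0.333). This change of −1.48 points was −4.89 with peaks above the median −log10 q of their library and −0.66 when host genes needed only 1 selected site. Of 1441 host genes with an end peak in both P0 libraries, 1254 (87.0%) kept one in both P8 libraries and 92 (6.38%) had none at P8. Among the latter were the long genes Nrxn3, Dab1, Lrp1b, Cntnap2, Robo1 and Robo2, named after their values were seen.

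**Figure D4:**
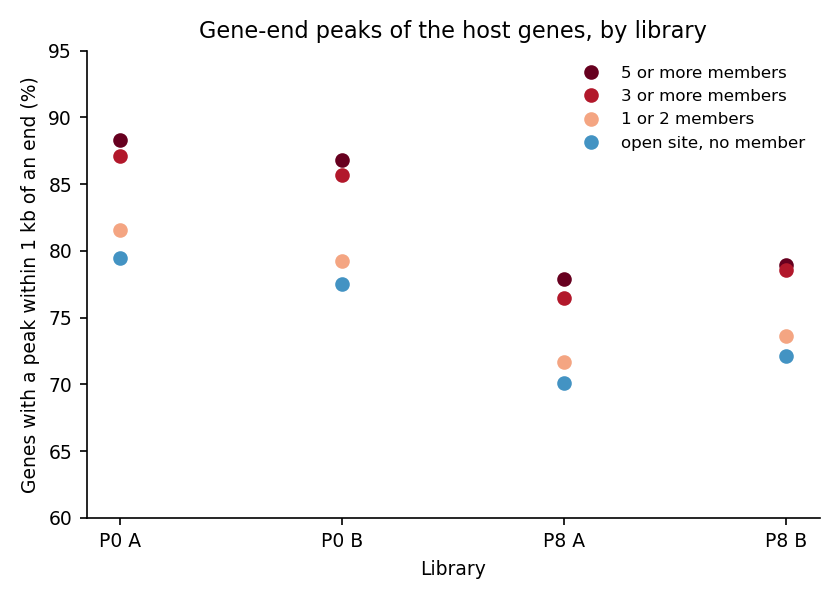
Percentage of genes with an end peak, at 1 kb or less, in each of the 4 libraries, by the number of selected sites in the gene, on a vertical axis that starts at 60%. All 4 gene sets are lower in both P8 libraries than in both P0 libraries, and the order of the sets is kept.

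Sites of the host genes that stayed open in all 4 libraries were compared with all such gene-body sites. The median summit pileup of 10376 such sites, divided by the median of all gene-body sites open in the 4 libraries, was 1 in both P0 libraries and 0.933 and 0.941 in the P8 libraries (difference −0.063, exact permutation p = 0.333). Pileups are whole tags, so these medians differ by a single tag. At 5540 such sites of genes without a selected site the values were 1.038 and 1.048 at P0 and 1 in both P8 libraries, a difference of −0.043 (exact permutation p = 0.333). With the geometric mean the 4 values were 0.994, 0.992, 0.976 and 0.981 in the host genes, and 1.0099, 1.014, 1.031 and 1.027, higher at P8, in the genes without a selected site. With fold enrichment in place of pileup the difference turned to 0.0054, with 1, 1.008, 1.010 and 1.008 in the 4 libraries.

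The share lost was higher on the X chromosome than on any autosome. Between 30.0% (chromosome 8) and 34.4% (chromosome 1) of P0-open gene-body sites were lost on each autosome, and 318 of 758 (42.0%, 38.5 to 45.5%) on X. The difference between X and the autosomes together (32.5%) was 9.49 points (5.99 to 13.1). Among sites of at least 6-fold enrichment it was 5.64 points (1.80 to 10.2), with 17.7% against 12.03%. Outside gene bodies X also lay above the autosomes, with 40.2% against 32.9% between genes and 17.5% against 13.5% at gene ends. In the opposite direction X was high as well, with 8.22% of its P8-open gene-body sites without a P0 peak, against 4.10 to 6.15% on the autosomes. X held 2.30 and 2.23% of the peaks of the P0 libraries and 2.53 and 2.21% of those of the P8 libraries. At gene-body sites open in all 4 libraries, which the selection did not use, the mean pileup on X relative to autosomes was 1.011 and 1.033 in the P0 libraries and 0.935 and 0.902 in the P8 libraries, over 307 X sites (exact permutation p = 0.333). The groups did not overlap, and the same order was seen for fold enrichment, with 1.12 in both P0 libraries and 1.07 and 1.04 in the P8 libraries. The sex of the cells in each library is not given in the sources used here.

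**Figure D5:**
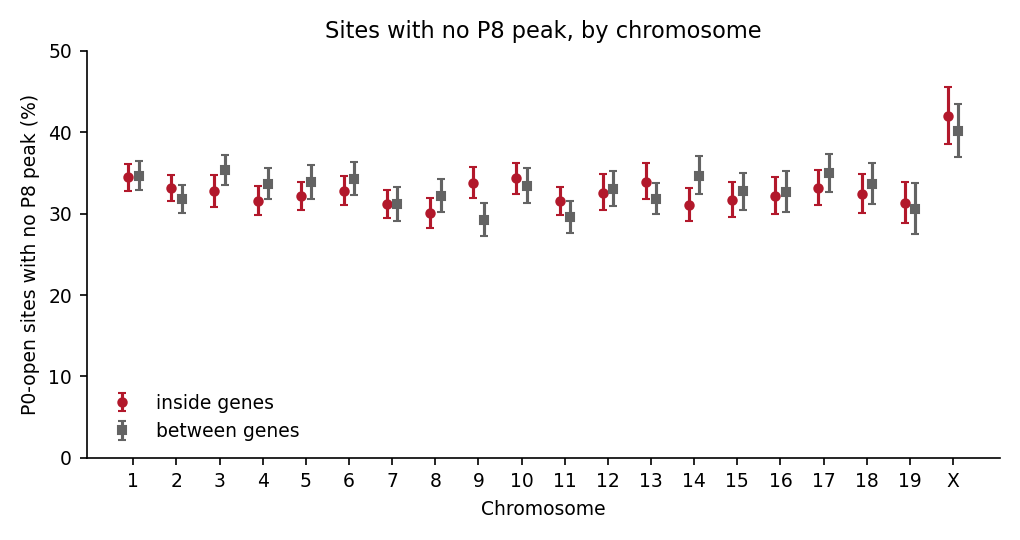
Percentage of P0-open sites with no P8 peak on each chromosome, inside genes (red circles) and between genes (grey squares), with 95% Wilson intervals. The autosomes lie between 30.0 and 34.4% inside genes, and X stands at 42.0% inside genes and 40.2% between them.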

How the data were processed

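Bowtie2 alignment to mm10 and MACS2 peak calls, one set for each library, were made by the authors, per the labels and the paper's methods. For each peak the authors deposited its summit pileup, a signal in tags not scaled for depth, its fold enrichment (a ratio to local background) and −log10 p-values and q-values. The authors' DiffBind table (log2 fold changes, p-values and FDR) was not used here. Columns of per-library values left out numbered 0.

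Here 450018 peaks on chromosomes 1 to 19 and X were merged at an overlap of 1 bp, and 5053 (1.11%) lay elsewhere. Sites were placed by 21631 protein-coding RefSeq genes on GRCm38, counting both gene ends, with strand from the promoter table. Background was (pileup + 1)/fold − 1, and the Poisson score from it matched the deposited −log10 p within 0.01 in 100% of peaks. Intervals (95% Wilson or Newcombe) cover counting error only. Libraries were compared by exact permutation tests. The selected sites and gene lists were chosen with earlier results of these data known.

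Genes named were the 10 with the most selected sites, the 10 with the highest share among genes with at least 10 P0-open sites (ties kept), the hosts of the 10 strongest sites, up to 4 of each list, and Col2a1, Acan, Sox9, Sox5, Sox6, Col9a1, Col11a1, Hapln1, Matn1, Fgfr3, Runx2 and Runx3 whatever their value. Every other gene was named after its values were seen, and some items are not reported here. Merging, placing, scores, intervals and permutation p-values were right in 100% of cases on simulated data. Tools were Python 3.11.15 with scipy 1.17.1, pandas 2.3.3, numpy 2.4.6 and matplotlib 3.10.9. Motifs in sites away from promoters were not analysed here.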

Additional observations from a re-analysis of the deposited data

How the results depend on the processing

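No paired analysis was possible because the peak names carry no replicate number. The number of selected sites (14279) was 6788 with peaks above the median −log10 q of their library and 2324 with at least 6-fold enrichment in both P0 libraries, a limit chosen after the data were seen. It ranged from 16162 to 29490 when each library was left out in turn, the highest without P0 library B. The share of P0-open gene-body sites (32.6%) was 33.1% at more than 3 kb from gene ends, 32.1% above the median −log10 q, 32.0% at the lowest background, 12.1% at 6-fold or more and from 36.9 to 46.0% with a library left out. With a library left out fewer peaks are needed, or fewer can disqualify a site. The change of retained sites in host genes (−0.063) was 0.0054 with fold enrichment and ranged from −0.063 to 0 with a library left out, 0 both without P0 library B and without P8 library B. The gene-end differences kept their sign throughout, from −10.03 to −7.53 points in host genes with a library left out and from −2.03 to −1.03 points for the gap to other genes; above the median −log10 q they were −13.69 and −4.89 points, with at least 1 selected site −8.06 and −0.66, and with at least 5 −9.11 and −1.72. A reciprocal overlap of 50% gave 19027 selected sites, genes of every biotype 15671, and the lowest background 13779. The planned change of the motif window was not run. With 2 libraries a passage no permutation test could go below p = 0.333.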
